A study of Oryza sativa Japonica Group with 5 samples.

Results

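Rice (Oryza sativa, Japonica Group) has a small set of WRKY transcription factors called group IIa, and the 4 genes of that set are described here in leaf RNA of the mutant pls4 (2 libraries) and of wild type, WT (3 libraries). The rule names them by identifier and uses no measured value, although the set was proposed with earlier results of these data known. They are among the 36475 loci listed for each library: WRKY62 (Os09g0417800) and WRKY76 (Os09g0417600) on chromosome 9, WRKY28 (Os06g0649000) on chromosome 6 and WRKY71 (Os02g0181300) on chromosome 2. The pls4 plants carry the pls4 genotype and are labelled "knockdown", and the WT plants are labelled "Non knockdown"; the series concerns how easily the mutant is infected by the fungus of sheath blight. Leaf age, growth conditions, any inoculation and the gene altered in pls4 are not in the labels. Nor do they say whether the libraries of a group came from separate plants, so that p-values may cover technical spread only.

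WRKY proteins bind DNA at the W-box, a short motif found in the promoters of many defence genes, and the group takes its name from the conserved residues WRKY of the binding domain. Group IIa members carry a leucine zipper through which they form dimers with one another, and in rice and Arabidopsis several of them are known as repressors that restrain immune responses. Transcripts of WRKY62 and WRKY76 are known to occur as full-length and intron-retaining forms. Each file gives 1 FPKM per gene, a fragment count divided by gene length and sequencing depth, and so does not separate such forms. Sequences of the genes, promoters and proteins were not used here.

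The libraries were alike in the number of loci at an FPKM of at least 1, between 18393 and 18538, which does not measure depth. Summed FPKM was 736527 and 748458 in pls4 and between 750735 and 758853 in WT. The label names mesophyll cells. The 5 loci listed for this cell type (4 for the small subunit of Rubisco and 1 for Lhcb1, names that the RefSeq table used here does not hold) summed to 19183 and 14830 FPKM in pls4 and to between 28886 and 39986 FPKM in WT, and all 5 were called lower. The 4 listed genes of secondary walls and vascular tissue (CESA4, CESA7, CESA9 and BC1) summed to 23.7 and 11.3 FPKM in pls4 and to between 2.40 and 4.19 FPKM in WT, and all 4 were called higher, although CESA7 and CESA9 met the filter only through the pls4 libraries. None of these 9 genes was at 0 in any library. The root gene LSI1 stood at 16.6 and 20.1 FPKM in pls4 and between 11.4 and 14.6 FPKM in WT and was called higher, and the seed gene GLUA2 stood at 3.89 and 4.79 FPKM in pls4 and between 3.60 and 4.88 FPKM in WT and did not pass. Whether tissue make-up differed between the genotypes, and its part in the values below, was not tested. In bulk RNA fewer cells of a type and less RNA per cell cannot be told apart.

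WRKY76 fell in pls4, WRKY28 and WRKY71 rose, and WRKY62 did not pass the test. Group IIa therefore did not move as a block: of the chromosome 9 pair 1 gene was called, lower, and of the remaining pair both were called, higher. The test was limma on log2(FPKM + 1) over 19637 loci, with a call at a Benjamini-Hochberg adjusted p under 0.05. Of all loci tested, 52.0% were called (33.4% higher and 18.5% lower in pls4), so a call is common in this comparison, and 3 calls among 4 genes are read against that share.

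**Figure D1:**
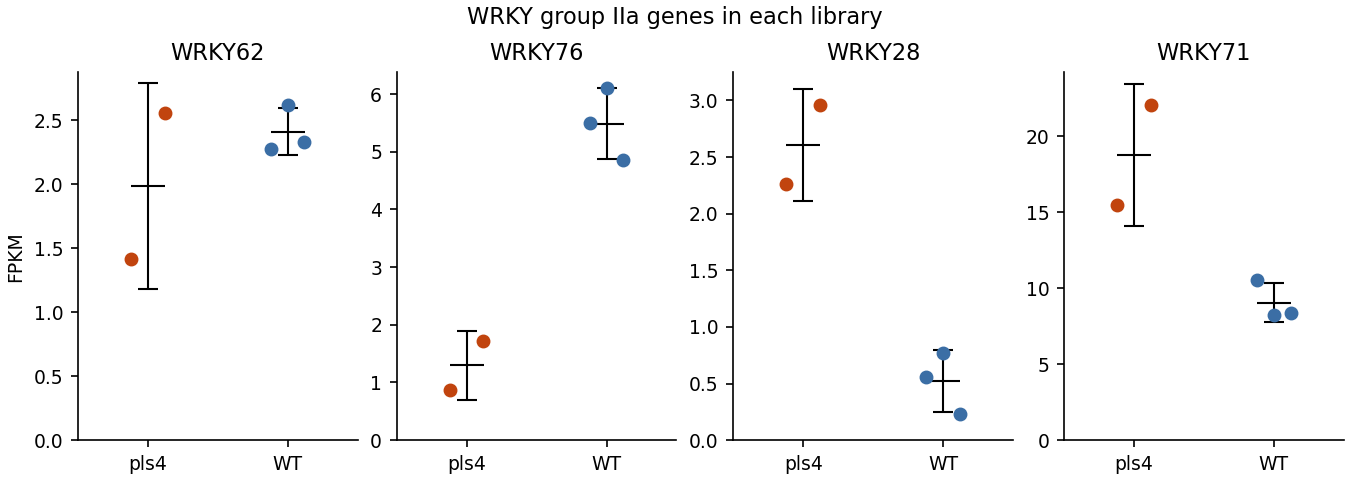
FPKM (vertical axes, each starting at 0 with its own scale) of WRKY62, WRKY76, WRKY28 and WRKY71 in the 2 pls4 libraries (orange) and the 3 WT libraries (blue); points are libraries, and black bars are the mean and SD. The groups overlap for WRKY62 and do not overlap for the other 3 genes, a separation that 69.9% of the tested loci showed. WRKY76 is lower in pls4, and WRKY28 and WRKY71 are higher.

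WRKY76 encodes a transcriptional repressor whose overexpression in rice is known to weaken resistance to blast fungus and to raise cold tolerance. Its level was 0.87 and 1.72 FPKM in the pls4 libraries, against 5.50, 6.10 and 4.86 FPKM in the WT libraries. Both pls4 libraries lay below every WT library, a separation that 69.9% of the tested loci showed in one direction or the other. The means were 1.30 ± 0.60 FPKM in pls4 (SD, n = 2) and 5.49 ± 0.62 FPKM in WT (SD, n = 3), a ratio of 0.236. On the log2(FPKM + 1) scale the change was -1.52 ± 0.18 (SE; limma, adjusted p = 0.000461), and 4.06% of the tested loci had a lower value. WRKY76 met the filter only through the WT libraries, where it is high; with no filter the call remained (limma, log2 fold change -1.52 ± 0.19, adjusted p = 0.0029). The call held under all 12 alternatives run, at changes between -2.07 and -1.25.

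WRKY62, also called XB10, encodes a protein that binds XA21, a receptor kinase for resistance to bacterial blight, and its overexpression is known to weaken that resistance. Its level was 1.42 and 2.56 FPKM in the pls4 libraries, against 2.28, 2.62 and 2.33 FPKM in the WT libraries. One pls4 library lay below all WT libraries, while the other lay among them. The means were 1.99 ± 0.81 FPKM in pls4 (SD, n = 2) and 2.41 ± 0.18 FPKM in WT (SD, n = 3), and the change of -0.21 ± 0.18 on the log2(FPKM + 1) scale did not pass (limma, adjusted p = 0.338). The value rested on which pls4 library was used: without pls4 replicate 2 it was -0.49 and past the threshold (limma, adjusted p = 0.0448), and without pls4 replicate 1 it was 0.06 (limma, adjusted p = 0.716).

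WRKY28 is known in rice as a negative regulator of the basal response to blast fungus. It stood at 2.26 and 2.96 FPKM in the pls4 libraries, against 0.56, 0.77 and 0.23 FPKM in the WT libraries. Each pls4 value lay above every WT value, where 69.9% of the tested loci showed no overlap in one direction or the other. No WT library reached the FPKM of 1 that the filter asks of at least 2 libraries. WRKY28 entered the test only through the pls4 libraries, so the filter itself favoured a difference; with no filter the call remained (limma, log2 fold change 1.26 ± 0.19, adjusted p = 0.00488). The means were 2.61 ± 0.50 FPKM in pls4 (SD, n = 2) and 0.520 ± 0.272 FPKM in WT (SD, n = 3), a ratio of 5.02. With the filter the change on the log2(FPKM + 1) scale was 1.26 ± 0.18 (limma, adjusted p = 0.00132). This scale shrinks changes of low genes: with a pseudocount of 0.1 the change was 2.23. The WT libraries themselves spread 3.35-fold from lowest to highest, against 1.15-fold to 1.28-fold for the other 3 genes.

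WRKY71 is known as a repressor of gibberellin signalling in the cereal aleurone, where it acts together with WRKY51, and its overexpression in rice is known to raise resistance to bacterial blight. Its level was 15.48 and 22.08 FPKM in the pls4 libraries, against 10.58, 8.25 and 8.37 FPKM in the WT libraries. The groups did not overlap, as in 69.9% of the tested loci, although WT replicate 1 stood above the other 2 WT libraries. The means were 18.8 ± 4.7 FPKM in pls4 (SD, n = 2) and 9.07 ± 1.31 FPKM in WT (SD, n = 3), a ratio of 2.07. The change on the log2(FPKM + 1) scale was 0.96 ± 0.17 (limma, adjusted p = 0.00297), with 7.64% of the tested loci higher. The median change of all tested loci was 0.15, and after each library was scaled by its median ratio, which moved that median to 0.00, WRKY71 stood at 0.79, WRKY28 at 1.15 and WRKY76 at -1.64; all 3 calls held.

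All 4 genes were higher in pls4 replicate 2 than in pls4 replicate 1. The ratio of replicate 2 to replicate 1 was 1.98 for WRKY76, 1.80 for WRKY62, 1.43 for WRKY71 and 1.31 for WRKY28. Over the tested loci above 0 in both libraries the median ratio was 1.01, with 52.0% of the loci higher in replicate 2. Why the 4 genes stood higher in replicate 2 was not tested. The share of those loci with a smaller ratio ran from 89.9% for WRKY28 to 98.2% for WRKY76. The vascular markers went the other way between the same 2 libraries, at 23.7 FPKM in replicate 1 and 11.3 FPKM in replicate 2; the part of this in the values of the 4 genes was not tested.

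FPKM are scaled by gene length, so levels were set side by side across the genes. Transcript forms that are not separated and the unknown handling of reads shared by like genes limit such comparisons. In both pls4 libraries the order from high to low was WRKY71, WRKY28, WRKY62, WRKY76. In all 3 WT libraries it was WRKY71, WRKY76, WRKY62, WRKY28. WRKY71 was highest in every library, and WRKY76 and WRKY28 exchanged the second and the last place. In pls4 the ranges of WRKY28 and WRKY62 overlapped, as did those of WRKY62 and WRKY76, so only WRKY71 stood apart from all the others. The pls4 ranges of WRKY28 (2.26 and 2.96 FPKM) and WRKY76 (0.87 and 1.72 FPKM) did not overlap. In WT no ranges of the 4 genes overlapped.

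Against all 36475 loci, WRKY71 lay at percentiles 80.4 and 85.0 of FPKM in the pls4 libraries and between percentiles 73.2 and 76.0 in WT. WRKY76 lay at percentiles 48.5 and 54.1 in pls4 and between 66.0 and 68.9 in WT. WRKY28 lay at percentiles 56.8 and 59.2 in pls4 and between 38.6 and 47.2 in WT. WRKY62 lay at percentiles 52.6 and 57.7 in pls4 and between 56.8 and 58.6 in WT. Apart from WRKY71, the genes were low to middling transcripts of these leaves, and the number of reads behind their FPKM is unknown.

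The summed FPKM of the 4 genes was 20.0 and 29.3 in the pls4 libraries, against 18.9, 17.7 and 15.8 in the WT libraries. WRKY71 made up 77.3% and 75.3% of that sum in pls4, against 55.9%, 46.5% and 53.0% in WT. WRKY76 made up 4.34% and 5.87% in pls4, against 29.1%, 34.4% and 30.8% in WT. The share of WRKY28 was 11.3% and 10.1% in pls4 and between 1.46% and 4.34% in WT. The share of WRKY62 was 7.09% and 8.73% in pls4 and between 12.1% and 14.8% in WT. The groups did not overlap in any of these 4 shares, which sum to the whole and so are not independent of one another.

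**Figure D2:**
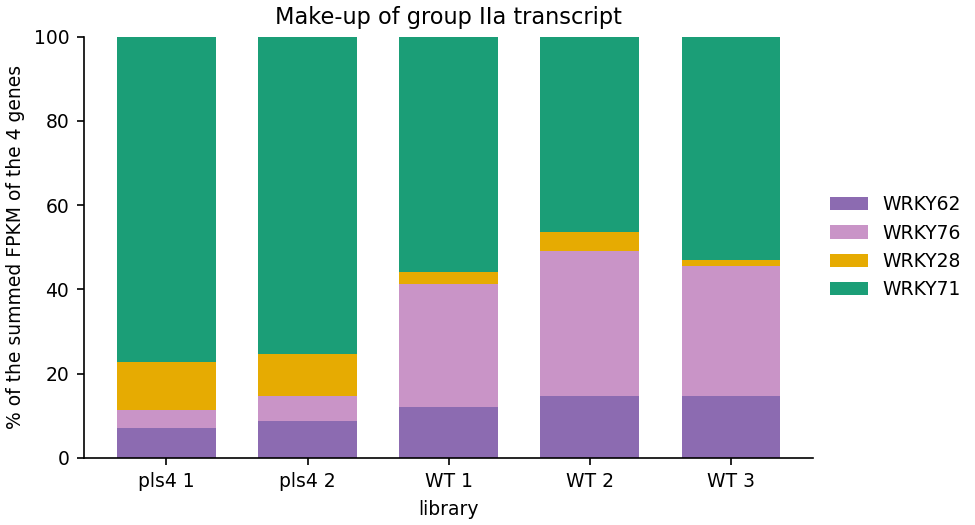
Share of the summed FPKM of the 4 group IIa genes (vertical axis, percent) taken by each gene in the 2 pls4 libraries (left) and the 3 WT libraries (right). WRKY71 takes 77.3% and 75.3% in pls4 against 46.5% to 55.9% in WT, and WRKY76 shrinks to 4.34% and 5.87% in pls4 against 29.1% to 34.4% in WT.

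WRKY62 and WRKY76 are direct neighbours: no locus of the files lies between their identifiers, and no gene lies between them in the RefSeq table (assembly ASM3414082v1). Their relation within a library turned over between the genotypes. The FPKM of WRKY62 divided by that of WRKY76 was 1.63 and 1.49 in the pls4 libraries, against 0.415, 0.430 and 0.479 in the WT libraries. WRKY62 was thus the higher of the pair in each pls4 library and the lower in each WT library. On the log2(FPKM + 1) scale WRKY62 minus WRKY76 was 0.38 ± 0.01 in pls4 (SD, n = 2) and -0.92 ± 0.09 in WT (SD, n = 3), a difference of 1.30 (exact two-sided permutation test over libraries, p = 0.2). With 2 libraries against 3, 0.2 is the smallest p this test can give, so it cannot pass 0.05. The difference stayed between 1.27 and 1.36 when any single library was left out, although the levels of both genes differed between the pls4 libraries. Its size depended on the pseudocount, at 1.51 with 0.5 and 1.75 with 0.1. At these low levels the pseudocount of 1 also narrows the SD of 0.01 in pls4, where the FPKM ratios were 1.63 and 1.49.

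WRKY28 and WRKY71 both rose, and the relation between them is less certain. The FPKM of WRKY71 divided by that of WRKY28 was 6.85 and 7.46 in the pls4 libraries, against 18.9, 10.7 and 36.4 in the WT libraries. The ratios of the groups did not overlap, and the WT ratios spread widely over a low WRKY28, whose WT values were all under 1 FPKM. On the log2(FPKM + 1) scale WRKY28 minus WRKY71 was -2.44 ± 0.15 in pls4 (SD, n = 2) and -2.74 ± 0.30 in WT (SD, n = 3), a difference of 0.30 with groups that overlapped (exact two-sided permutation test, p = 0.4). The size depended on the pseudocount, at 0.64 with 0.5 and 1.20 with 0.1, and on scaling, at 0.57 after quantile normalization. It was 0.19 without pls4 replicate 1 and 0.47 without WT replicate 2. Whether WRKY28 changed more than WRKY71 can therefore not be told from these values.

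The 2 pairs were compared by the mean log2(FPKM + 1) of WRKY62 and WRKY76 minus that of WRKY28 and WRKY71 in each library. It was -1.78 and -1.62 in the pls4 libraries, against 0.12, 0.33 and 0.38 in the WT libraries. The chromosome 9 pair was thus the lower one in pls4 and the slightly higher one in WT. The difference between the genotypes was -1.98, with the exact two-sided permutation test again at its smallest possible p of 0.2. It ranged from -2.06 to -1.89 with any single library left out, and was -2.34 with a pseudocount of 0.5 and -2.82 with 0.1. The mean of the chromosome 9 pair does not stand for both its genes. WRKY76 changed by -1.52, whereas WRKY62 changed by -0.21 and was not called. The difference also holds the rises of WRKY28 (1.26) and WRKY71 (0.96).

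**Figure D3:**
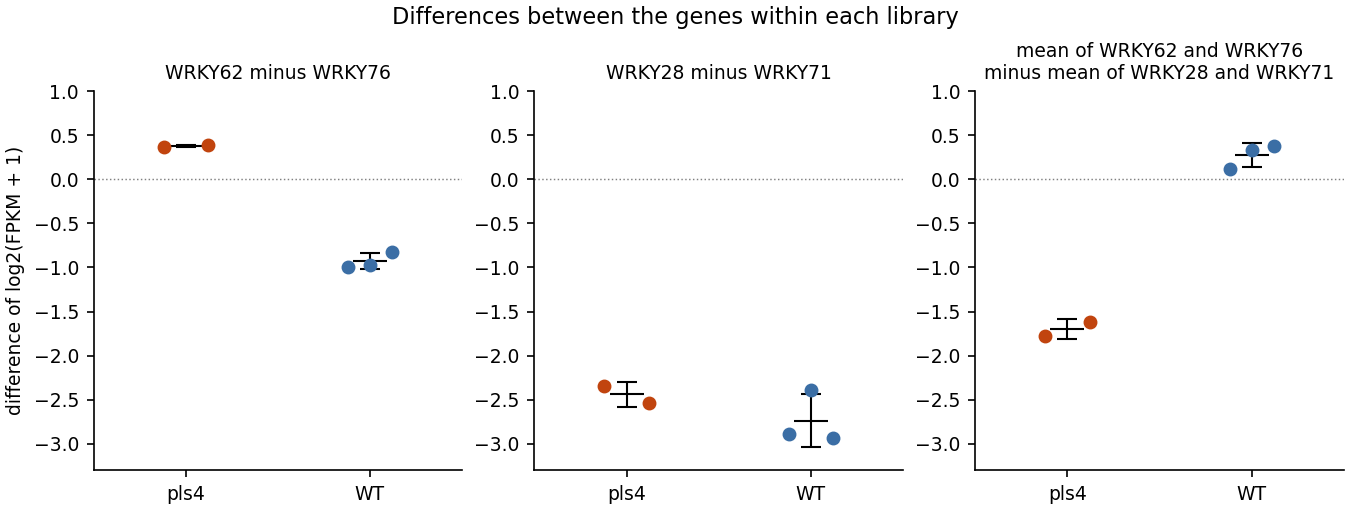
Difference of log2(FPKM + 1) between genes within each library (vertical axes, shared scale), for WRKY62 minus WRKY76, for WRKY28 minus WRKY71, and for the mean of the first pair minus the mean of the second; points are libraries (pls4 orange, WT blue), bars the mean and SD, and the dotted line marks equal levels. The first difference is positive in pls4 and negative in WT, the second overlaps between the genotypes, and the third is negative in pls4 and positive in WT.

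Loci beside the genes were called about as often as all tested loci. Taking 5 loci on each side in identifier order, 30 loci flanked the 4 genes and 19 were tested, of which 7 were called higher and 2 lower (47.4% called, against 52.0% of all tested loci). The balance of directions rested on the scaling, with 5 higher and 6 lower under median ratio scaling and 6 and 4 after quantile normalization. Around the chromosome 9 pair 6 of 10 flanking loci were tested, 2 were called higher, none lower (4 did not pass), and their changes lay between -0.26 and 0.62. Os09g0417500, next to WRKY76, was at 2.03 and 2.25 FPKM in pls4 against 0.96, 0.99 and 1.18 FPKM in WT and was called higher; it met the filter only through the pls4 libraries. CIPK16 (Os09g0418000), next to WRKY62, encodes a kinase that acts with calcium sensors of the CBL type. It stood at 1.42 and 1.38 FPKM in pls4 against 1.84, 1.91 and 1.85 FPKM in WT, a change of -0.26 ± 0.11 that did not pass (limma, adjusted p = 0.0882).

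Around WRKY28, 2 of 8 tested loci were called higher and 2 lower, where 33.4% of all tested loci were called higher and 18.5% lower. Its neighbour Os06g0648600 was below the filter, listed at 0 in both pls4 libraries against 0.76, 0.85 and 0.49 FPKM in WT, and Os06g0649500 on the other side changed by -0.16 ± 0.09 and did not pass (limma, adjusted p = 0.182). Around WRKY71, 3 of 5 tested loci were called higher and none lower (2 did not pass), and changes did not exceed 0.48. None of the 3 calls held throughout. Those of Os02g0180700, Os02g0181900 and Os02g0181800 were lost under 6, 4 and 2 of 12 alternatives. Of the direct neighbours of WRKY71, Os02g0181400 was listed at 0 in every library and Os02g0181200 reached at most 0.13 FPKM. Without pls4 replicate 1 the flanking calls numbered 5 in all, and without pls4 replicate 2 they numbered 4.

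**Figure D4:**
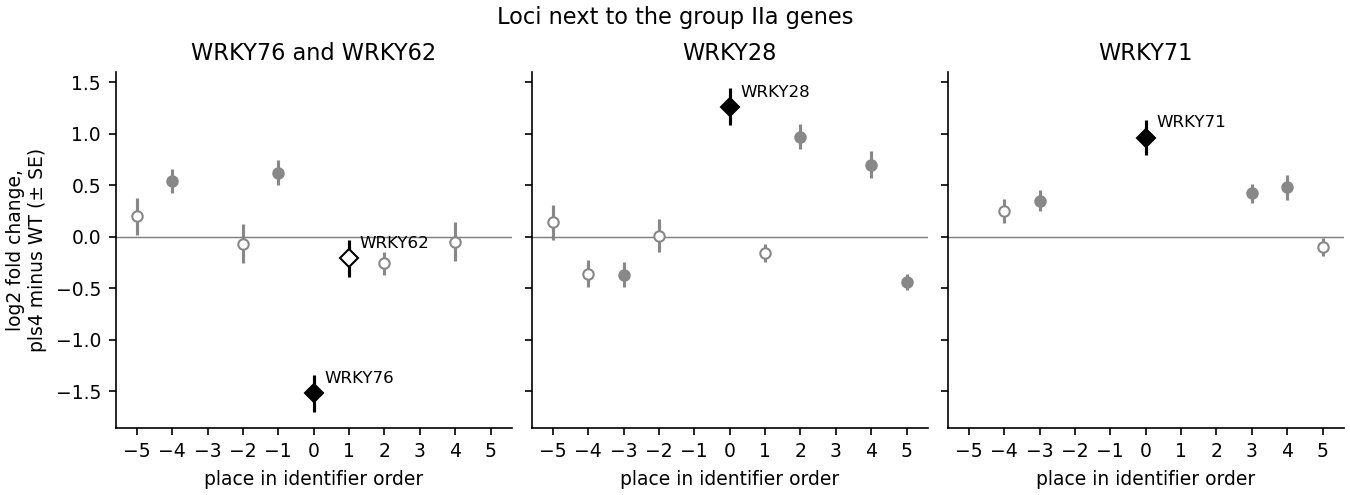
Log2 fold change, pls4 minus WT, of log2(FPKM + 1) (vertical axis, ± SE) against place in identifier order (horizontal axis, 0 is the named gene) for the tested loci within 5 places of WRKY76, WRKY28 and WRKY71; diamonds are group IIa genes, circles other loci, and filled symbols passed the test. WRKY76 at -1.52, WRKY28 at 1.26 and WRKY71 at 0.96 each lie farther from 0 than any tested locus beside them.

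Genes around group IIa in the immune network were followed through lists of identifiers whose names matched the RefSeq table by position. Of 20 other WRKY genes listed, 2 had such a name, and both rose, where 33.4% of all tested loci were called higher. WRKY24, which represses gibberellin and abscisic acid signalling in aleurone cells, had 10.34 and 14.06 FPKM in pls4 against 4.36, 4.09 and 4.48 FPKM in WT (log2 fold change 1.30 ± 0.14). WRKY51, the partner of WRKY71 in aleurone, had 65.64 and 72.25 FPKM in pls4 against 56.54, 48.23 and 47.05 FPKM in WT (0.44 ± 0.10), a call lost without pls4 replicate 2 and with the replicate number as a block. WRKY51 was more abundant than any group IIa gene in every library.

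Of 8 genes of immune signalling listed, 5 had a name that matched the RefSeq table, and all 5 were tested. Of these, 3 rose and 2 did not pass (60% called, against 52.0% of all tested loci). Their median change was 0.78 against 0.15 over all tested loci. MPK3, a mitogen-activated protein kinase of the defence cascade, had 10.97 and 10.64 FPKM in pls4 against 5.47, 5.03 and 4.39 FPKM in WT (log2 fold change 0.99 ± 0.11). NH1, the rice homologue of the salicylate co-activator NPR1, had 9.49 and 10.95 FPKM in pls4 against 6.30, 4.94 and 5.19 FPKM in WT (0.80 ± 0.13). CEBiP, which binds fungal chitin at the cell surface, had 70.1 and 78.0 FPKM in pls4 against 43.3, 42.3 and 42.3 FPKM in WT (0.78 ± 0.08). These 3 calls held under all 12 alternatives. CERK1, the receptor kinase that acts with CEBiP, changed by 0.18 ± 0.09, and the small GTPase RAC1 by -0.15 ± 0.15; neither passed.

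Overexpression of WRKY76 in rice is known to lower genes of pathogenesis-related proteins and of diterpenoid phytoalexins, small antimicrobial molecules, and WRKY62 is known to act on the latter genes too. Of 14 such phytoalexin genes listed, 11 had a name that matched the RefSeq table and 9 were tested. Of these, 3 rose, 2 fell and 4 did not pass (55.6% called, against 52.0% of all tested loci). Their median change was 0.16 against 0.15 over all tested loci. KSL7, a diterpene synthase on the way to phytocassanes, had 37.09 and 35.75 FPKM in pls4 against 0.09, 0.17 and 0.21 FPKM in WT (log2 fold change 5.02 ± 0.11), and KSL10, on the way to oryzalexins, had 2.08 and 2.99 FPKM in pls4 against 0, 0.06 and 0.08 FPKM in WT (1.74 ± 0.15). Both entered the test only through the pls4 libraries. CYP71Z6, a cytochrome P450, changed by 0.29 ± 0.10 and CPS2, which forms the precursor of phytocassanes, by -0.23 ± 0.08, calls lost under 7 and 6 of 12 alternatives.

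Momilactones are a further class of these compounds, made by a gene cluster on chromosome 4. Its first enzyme, CPS4, had 0.15 and 0.29 FPKM in pls4 against 1.67, 0.68 and 1.31 FPKM in WT (log2 fold change -0.84 ± 0.21, lost after quantile normalization and without either pls4 library). CPS4 met the filter only through the WT libraries. The cluster genes MAS, CYP99A2 and CYP99A3 changed by 0.02 ± 0.14, 0.16 ± 0.30 and 0.03 ± 0.15 and did not pass, nor did CYP71Z7 (0.24 ± 0.15). KSL4 and CYP76M8 were below the filter. Leaving out pls4 replicate 1 or pls4 replicate 2 left 2 phytoalexin genes called, both higher; leaving out WT replicate 2 or 3 left 3 called.

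Of 7 pathogenesis-related genes listed, 3 had a name that matched the RefSeq table. Of these, 2 rose and 1 fell, where 52.0% of all tested loci were called in either direction. The chitinase gene Cht8 had 342 and 500.5 FPKM in pls4 against 76.1, 45.3 and 42.8 FPKM in WT (log2 fold change 2.94 ± 0.26). The chitinase gene Cht1 went the other way, with 4.21 and 4.14 FPKM in pls4 against 22.57, 12.24 and 14.06 FPKM in WT (-1.69 ± 0.23). PBZ1, a PR10 protein induced by the resistance inducer probenazole, changed by 0.53 ± 0.17, a call lost under 7 of 12 alternatives, scaling among them.

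**Figure D5:**
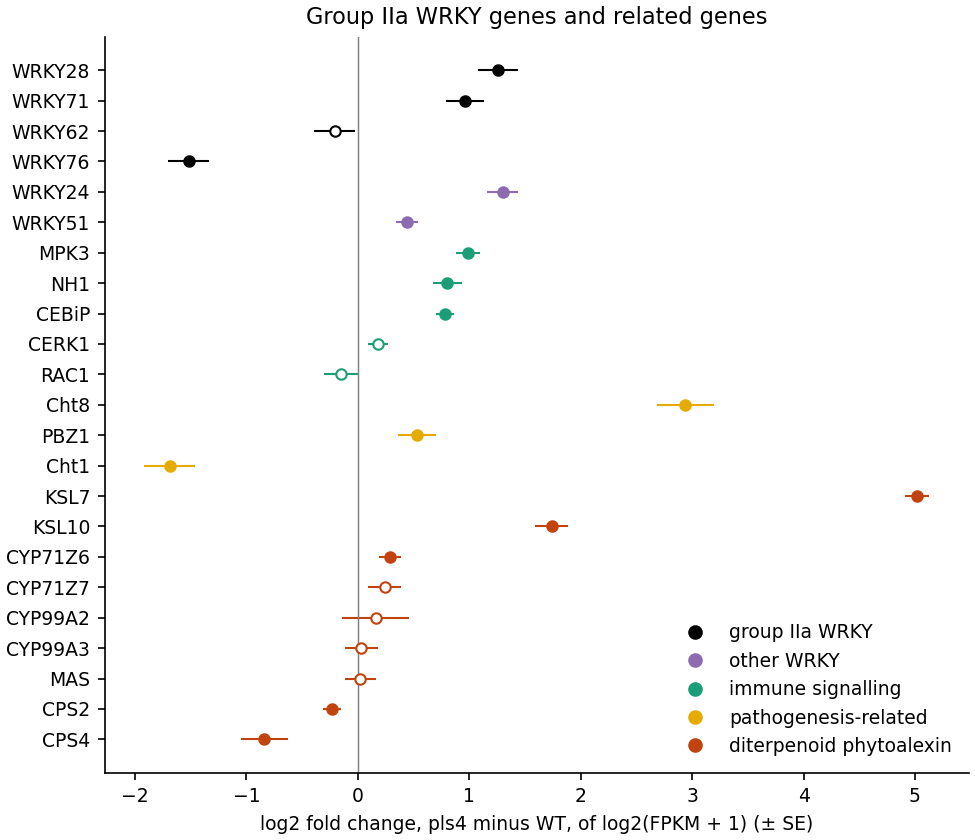
Log2 fold change, pls4 minus WT, of log2(FPKM + 1) (horizontal axis, ± SE) for the 4 group IIa genes and the tested genes of 4 related lists (colours); filled points passed limma's test at an adjusted p under 0.05. WRKY76 (-1.52) and Cht1 (-1.69) are the lowest, and KSL7 (5.02) the highest.

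Likeness between profiles was measured as the root mean square distance between log2(FPKM + 1) values over the 5 libraries, each gene centred on its own mean; small values mean like profiles. Within the group and on this scale WRKY28 and WRKY71 were nearest to each other, at 0.25. WRKY76 lay 1.37 from WRKY28 and 1.22 from WRKY71. WRKY62 lay 0.64 from its neighbour WRKY76, 0.60 from WRKY71 and 0.74 from WRKY28. Distances were taken with a pseudocount of 1 only, which shrinks changes of low genes. With 0.1 the change of WRKY28 was 2.23 against 1.26, and that of WRKY71 1.03 against 0.96. Whether the nearest pair holds with a smaller pseudocount was not tested. Among the 19 tested genes of the related lists, those nearest to WRKY71 were NH1 at 0.13 and CEBiP at 0.17. The nearest to WRKY28 were MPK3 and WRKY24, both at 0.21. The nearest to WRKY76 were Cht1 at 0.36 and CPS4 at 0.45, and the nearest to WRKY62 were CPS2 at 0.17 and MAS at 0.23. With 5 libraries in 2 groups such likeness mostly states the common direction and size of change, and between 142 and 3152 of the tested loci were nearer to the same gene than those named.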

How the data were processed

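Leaf RNA of rice was sequenced from 2 pls4 and 3 WT libraries, grouped by their titles. The authors deposited FPKM values, per the file headers, in 1 file per library; TopHat2 version 2.1.1 and the build IRGSP-1.0 are named in the submitters' processing notes. The sources used here do not give the counting tool, annotation, filters or any scaling between libraries, so total depth, the number of reads behind a low value, and the handling of reads shared by like genes are unknown.

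The test across loci was limma 3.58.1 (R 4.3.3), run with an intensity trend on log2(FPKM + 1) values of the 19637 loci that reached an FPKM of 1 in 2 or more libraries, with Benjamini-Hochberg adjustment over all of them; a fold change on this scale understates changes of low genes. The procedure was tested on simulated data. There far fewer loci changed than were called here, all at levels above those of WRKY62 and WRKY28 in WT. Differences between genes within a library were compared with exact permutation tests in SciPy 1.17.1. Alternatives were median ratio scaling, quantile normalization, pseudocounts of 0.1 and 0.5, no filter, an FPKM of at least 5, a replicate block, and leaving out each library over the same tested loci.

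The members and lists were chosen with earlier results of these data known. Each listed symbol was checked by chromosome and relative gene order, with a tolerance of 0.05, among protein-coding genes of the RefSeq table (ASM3414082v1). Of 49 listed identifiers 21 agreed and were used, 2 disagreed, and the symbols of 26 are missing from the table. Of the members, WRKY28 is also missing there, and its name was not checked. Named are the members, the listed genes that agreed, the direct neighbours of each member, and for each member the 2 listed genes with the nearest profile.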

Additional observations from a re-analysis of the deposited data

How the results depend on the processing

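The calls of WRKY76, WRKY28 and WRKY71 kept their direction and their side of the threshold under every alternative that tested them; with an FPKM of at least 5 required, WRKY62 and WRKY28 were not tested. With each library left out in turn their changes ran from -1.79 to -1.25, 1.11 to 1.40 and 0.72 to 1.20. That of WRKY62 ran from -0.49 to 0.06, reversing at 0.06 without pls4 replicate 1. Where 1 pls4 library was left, limma takes it to vary like the WT libraries, and the differences between genes are values with no test. Loci called numbered 10208 (6566 higher), and between 6653 and 10259 with a library left out (3986 to 6780 higher). With median ratio scaling 4243 were higher, 46.7% of calls against 64.3%, and after quantile normalization 53.0%. Phytoalexin genes called, 5, became 3 after quantile normalization, with an FPKM of at least 5 and with the replicate block, and 2 to 4 with a library left out. Flanking loci called, 9 (7 higher), became 11 (5 higher) with median ratio scaling, 10 (6 higher) after quantile normalization, 10 with no filter, 5 with an FPKM of at least 5 and with the block, and 4 to 8 with a library left out; other WRKY genes called, 2, became 1 with the block and 1 to 2 with a library left out. The replicate numbers are not stated to pair libraries. Deviations of same-numbered libraries from their group means had r = -0.095 and -0.138. With 2 pls4 libraries the pls4 deviations mirror each other, so these values are not independent and cannot settle whether libraries were paired. In the fit with the block WT replicate 3 carries no information on the difference, and WRKY62, WRKY76, WRKY28 and WRKY71 stood at -0.23, -1.59, 1.11 and 0.91 with no call changed. The number of reads behind levels of a few FPKM is unknown, which limits the precision of WRKY28 in WT and of WRKY76 in pls4.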
